A study of Mus musculus with 33 samples.

Results

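The comparison used 6 mRNA libraries, 3 of hypomorph cells at day 4 and 3 of control cells at day 0, out of 18 mRNA libraries and 33 samples in the series, and all 12348 listed genes were read. The cells were cultured basal cells of the mouse esophagus, the stem and progenitor layer of that stratified epithelium. The day 0 cells, labelled Nudt21 floxed, received ethanol for 4 days. The day 4 cells, labelled Nudt21 Hypomorph, received 0.05 µM 4-hydroxytamoxifen (4OHT, the ligand that activates the Cre recombinase CreER) together with 50 ng/ml doxycycline for 4 days. The labels of the series' other assays give the genotype as Nudt21 fl/fl with R26CreER, a CreER driven from the ubiquitous Rosa26 locus. Cells labelled KO, used here for direct comparison at day 4, received 0.05 µM 4OHT without doxycycline for 4 days. Hypomorph cells at day 6, compared here with day 4, received 0.05 µM 4OHT and 50 ng/ml doxycycline for 6 days. No mRNA control was treated for 6 days. Doxycycline was in the medium of all and only the hypomorph samples, so its effect and that of the hypomorph state cannot be told apart. All groups grew in the same medium with inhibitors of ROCK (Y-27632), GSK3 (CHIR99021), the TGF-beta receptor kinases (A83-01) and the BMP receptor kinases (DMH-1). Whether the replicates of a group came from separate cultures is not stated. Each p-value reflects how far libraries of the same group lie apart, pooled over all 18 mRNA libraries in 1 fit. That spread is possibly technical alone.

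Nudt21 encodes CFIm25, the subunit of cleavage factor Im that recognises UGUA motifs upstream of poly(A) sites. Cleavage factor Im promotes use of distal sites, and its loss in mammalian cells is known to shorten 3' UTRs of many genes. A hypomorph is a state in which a gene's activity is reduced and not abolished.

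Values are the authors' scaled CPM, reads per gene divided by a scale for each library. Changes are log2 differences of scaled CPM + 0.5, which understate the change of low genes, given ± the standard error (SE). The words rose and fell mark genes where limma's two-sided test, Benjamini-Hochberg adjusted over 12344 tested genes, gave p under 0.05. The 6 libraries held 16.3 to 54.4 M (mega) reads on listed genes, with hypomorph day 4 replicate 2 deeper than the other 5. Basal markers were high in both groups, with Krt5 at 13840 to 14600 scaled CPM at day 0 and 14690 to 14990 in the hypomorph and Trp63, the transcription factor of basal cells, at 510 to 566 and 508 to 526. The day 0 libraries differed among themselves in 2 ways. Alb, the serum protein of liver, stood at 517, 6.97 and 314 scaled CPM at day 0 and at 29.6, 38.6 and 11.6 in the hypomorph, and the 17 measured liver markers summed to 930, 16 and 564 at day 0 and 51.8, 75.2 and 23.1 in the hypomorph. Day 0 replicate 2, the library low in Alb, had the highest sum over squamous differentiation genes, 10526 scaled CPM against 7132 and 6678 in replicates 1 and 3 and 8526 to 8798 in the hypomorph. Leaving out libraries with Alb above 100 leaves day 0 replicate 2 as the only day 0 library, which is then assumed to vary like the other groups.

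Nudt21 itself (chr8:94019403-94037039, GRCm38) was measured first, as a check of the labels. It stood at 12.2, 14.2 and 12.2 scaled CPM at day 0 and at 4.91, 6.25 and 3.85 in the hypomorph. The groups did not overlap, and the level fell by 1.30 ± 0.28 on the log2 scale (limma adjusted p = 0.000949). Over 19 alternative settings the adjusted p stayed between 4.03e-05 and 0.0401.

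Hypomorph cells at day 4 differed from day 0 in many genes, mostly by little. Of 12344 genes, 2162 rose (17.5%) and 1746 fell (14.1%), together 31.7%. Among these 3908 genes, 2589 moved by less than 1.5-fold and 434 by at least 2-fold, and of the latter 329 rose and 105 fell. The median change over all genes was 0.01. The share of rises among called genes was 55.3%, 49.4% with TMM scaling, 48.7% with edgeR and 48.8% with DESeq2 on recovered reads and 49.6% with depth as a term, so the majority of rises depends on the scaling. The authors' deposited table calls 3859 genes, of which 3777 were called here too, none with the opposite sign.

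**Figure D1:**
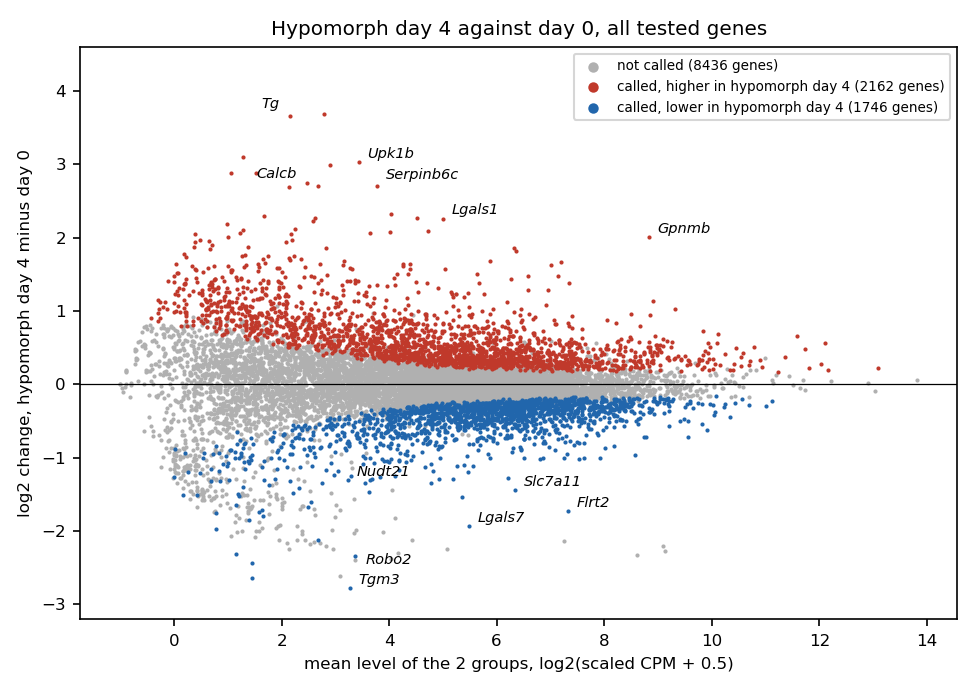
Each point is 1 of 12344 tested genes, with the mean level of both groups on the x axis, log2(scaled CPM + 0.5), and the log2 change from day 0 to hypomorph day 4 on the y axis. Red points rose (2162), blue points fell (1746), and the largest rises reach further from 0 than the largest falls.

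The 12 largest rises by a fixed rule, called genes whose groups did not overlap and whose higher group averaged 5 scaled CPM or more, were mostly genes near silence at day 0. Tg (chr15:66670754-66850721), which encodes the thyroid hormone precursor thyroglobulin, was listed at 0, 0 and 0.603 scaled CPM at day 0 and stood at 7.49, 8.72 and 7.06 in the hypomorph. It rose by 3.66 ± 0.23 (limma adjusted p = 2.43e-12), a fitted value that depends on the pseudocount and was 2.16 with a pseudocount of 2. Tg overlaps Sla in the annotation, and since strand use in counting is not given in the sources used here, reads of the 2 genes cannot be told apart there. Upk1b (chr16:38773182-38800203), a uroplakin of urothelium, went from 1.37, 2.46 and 1.81 to 19, 19.9 and 17.2 (rise of 3.03 ± 0.21, limma adjusted p = 2.05e-11). Calcb, the neuropeptide CGRP-beta, went from 0.604, 0.513 and 1.93 to 7.9, 7.83 and 11.4 (2.75 ± 0.32, limma adjusted p = 2.07e-07). In each of these genes the lowest hypomorph library lay above the highest day 0 library by more than the range of either group.

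The next 4 rises described here encode matrix, adhesion, lectin and junction proteins. Col4a1 (chr8:11198423-11312889), a chain of basement membrane collagen IV, went from 5.49, 7.28 and 9.76 to 34.4, 37 and 40.9 scaled CPM (2.27 ± 0.15, limma adjusted p = 7e-12). Its partner chain Col4a2, which is not among the 12 and whose gene overlaps that of Col4a1 at their shared promoter, rose from 10.2 ± 2.35 to 30.8 ± 1.86 (SD, n = 3 libraries). Parvb, the focal adhesion protein beta-parvin, rose from 1.24 ± 0.418 to 10.6 ± 0.703, and the galectin gene Lgals1 from 10.9 ± 2.93 to 52.6 ± 1.39. Cldn4, a tight junction claudin, stood at 4.39, 9.23 and 2.77 at day 0 and at 25.2, 27.5 and 26.5 in the hypomorph. Its rise of 2.32 was 1.47 without the libraries high in Alb, where day 0 rests on replicate 2.

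The remaining 5 were the clade B serpins Serpinb9b (1.19 ± 0.291 to 12.8 ± 0.886) and Serpinb6c (3.31 ± 1.8 to 23.1 ± 4.18), the fucosyltransferase gene Fut4, the receptor gene Tnfrsf26 and the platelet chemokine gene Ppbp. Ppbp was the tightest, at 11.1, 8.77 and 8.86 scaled CPM at day 0 and 42.6, 45.6 and 38.5 in the hypomorph (2.09 ± 0.10, limma adjusted p = 1.73e-14). The low-level Tnfrsf26 rose by 2.12, or 1.40 without the libraries high in Alb. Serpins share sequence with near copies, so how the authors' counting split their reads is uncertain. Outside the rule, and chosen after its values were seen, Gpnmb stands out by level. This glycoprotein of lysosomes and melanosomes went from 151, 201 and 192 scaled CPM to 708, 728 and 738 (2.01 ± 0.08, limma adjusted p = 6.7e-16). Also chosen after seeing their values, Msln (mesothelin) rose from 36.5, 28 and 39 to 117, 136 and 123, and St3gal1, a sialyltransferase gene, from 48.7, 45.1 and 57.2 to 128, 146 and 147.

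**Figure D2:**
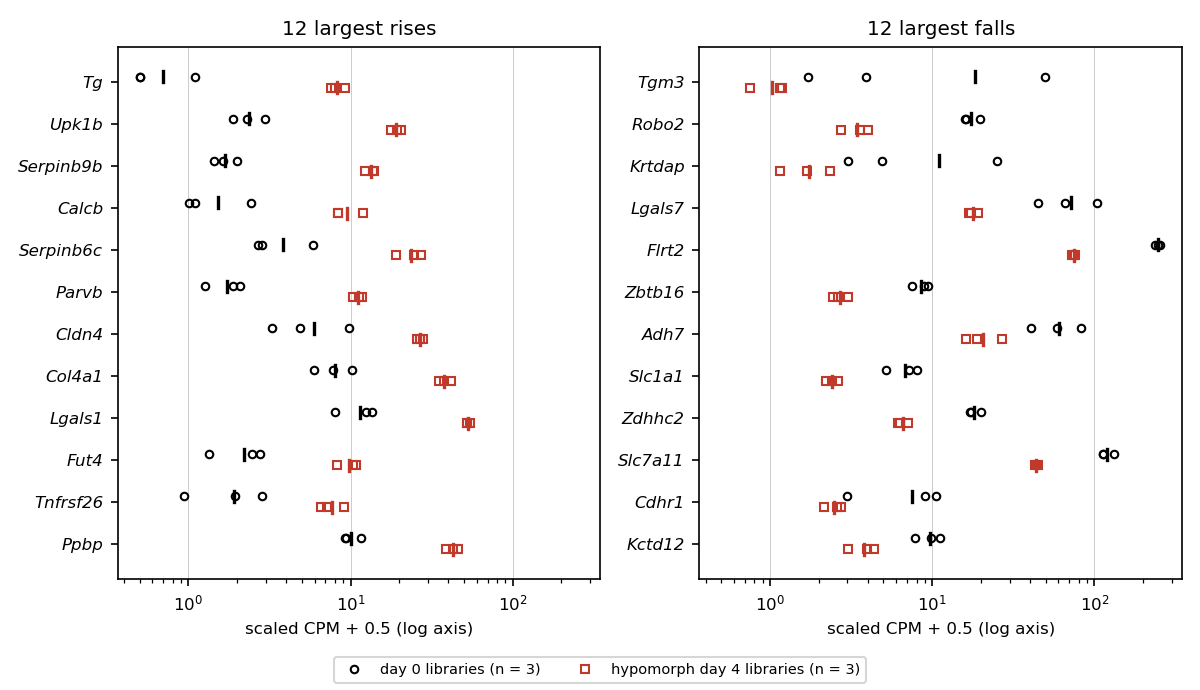
Levels of the 12 largest rises and 12 largest falls in each library, as scaled CPM + 0.5 on a log axis, with day 0 as black circles, hypomorph day 4 as red squares and the group mean as a vertical bar (n = 3 each). No gene's groups overlap, by the rule that chose them, and the day 0 libraries of Tgm3 and Krtdap spread the most.

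The 12 largest falls held 2 genes of keratinized epithelium whose day 0 level came mostly from 1 library. Tgm3, a transglutaminase that cross-links the cornified envelope, stood at 3.41, 49 and 1.21 scaled CPM at day 0 and at 0.643, 0.254 and 0.688 in the hypomorph (limma adjusted p = 0.0397). Its fall of 2.78 was 1.36 without day 0 replicate 2, and 8 of 19 alternatives lost the call, with adjusted p up to 0.324. Krtdap, made during keratinocyte differentiation, stood at 4.39, 24.6 and 2.53 at day 0 and at 1.84, 0.652 and 1.19 in the hypomorph. Its fall of 2.12 was 1.22 without that library, and 4 of 19 alternatives lost the call. Both genes are thus high in the day 0 library that was high in squamous genes as a whole.

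Of the other 10 falls, 8 kept their call in all 19 alternatives. Flrt2 (chr12:95692006-95785215), a membrane protein that binds latrophilin and Unc5 receptors, went from 247, 237 and 254 scaled CPM to 72.7, 75.8 and 74.2 (fell by 1.72 ± 0.08, limma adjusted p = 3.59e-15). Robo2, a receptor for Slit ligands, went from 19.2, 15.5 and 15.7 to 2.25, 3.52 and 3.07 (fell by 2.34 ± 0.18). Lgals7, a galectin of stratified epithelia, went from 65.7, 103 and 44.6 to 18.7, 16.3 and 16.9 (fell by 1.93 ± 0.24). In Flrt2 each group was tight, while in Lgals7 the day 0 libraries themselves differed by more than 2-fold.

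The remaining 7 falls were of mixed function. Slc7a11 (chr3:50364936-50499087), the cystine importer, went from 112, 132 and 113 scaled CPM to 44.4, 43 and 42.4 (fell by 1.44 ± 0.08, limma adjusted p = 9.86e-14). Slc1a1, an importer of glutamate and cysteine, fell from 6.33 ± 1.48 to 1.91 ± 0.205, and Adh7, whose gene overlaps 0610031O16Rik and which is the retinol-oxidizing alcohol dehydrogenase of the upper digestive tract, from 60.4 ± 21.3 to 20.1 ± 5.58. The palmitoyltransferase gene Zdhhc2 fell from 17.6 ± 1.63 to 6.06 ± 0.49 and the repressor gene Zbtb16 from 8.07 ± 0.971 to 2.18 ± 0.293. The last 2, Cdhr1 and Kctd12, were weakly measured, with falls of 1.41 ± 0.40 and 1.35 ± 0.32 that were lost in 2 and 1 of 19 alternatives.

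Beyond single genes, 39 lists of pathway and marker genes and 8 gene families were counted, each beside the 17.5% of all genes that rose and the 14.1% that fell. Lists overlap in a few genes. A list's count and median are descriptions and no test was made of a list. Calls over all genes were also fewer without the libraries high in Alb and without those over 30 M reads. A smaller list count in these settings is thus not by itself particular to the list. Some lists lost a larger share of their calls than all genes did, and others a smaller one. With log2 Alb as a term, which keeps all libraries, 3792 genes were called, against 3908 without the term. Rises among nuclear-encoded respiratory chain genes were 10 with the term and 14 without it.

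**Figure D3:**
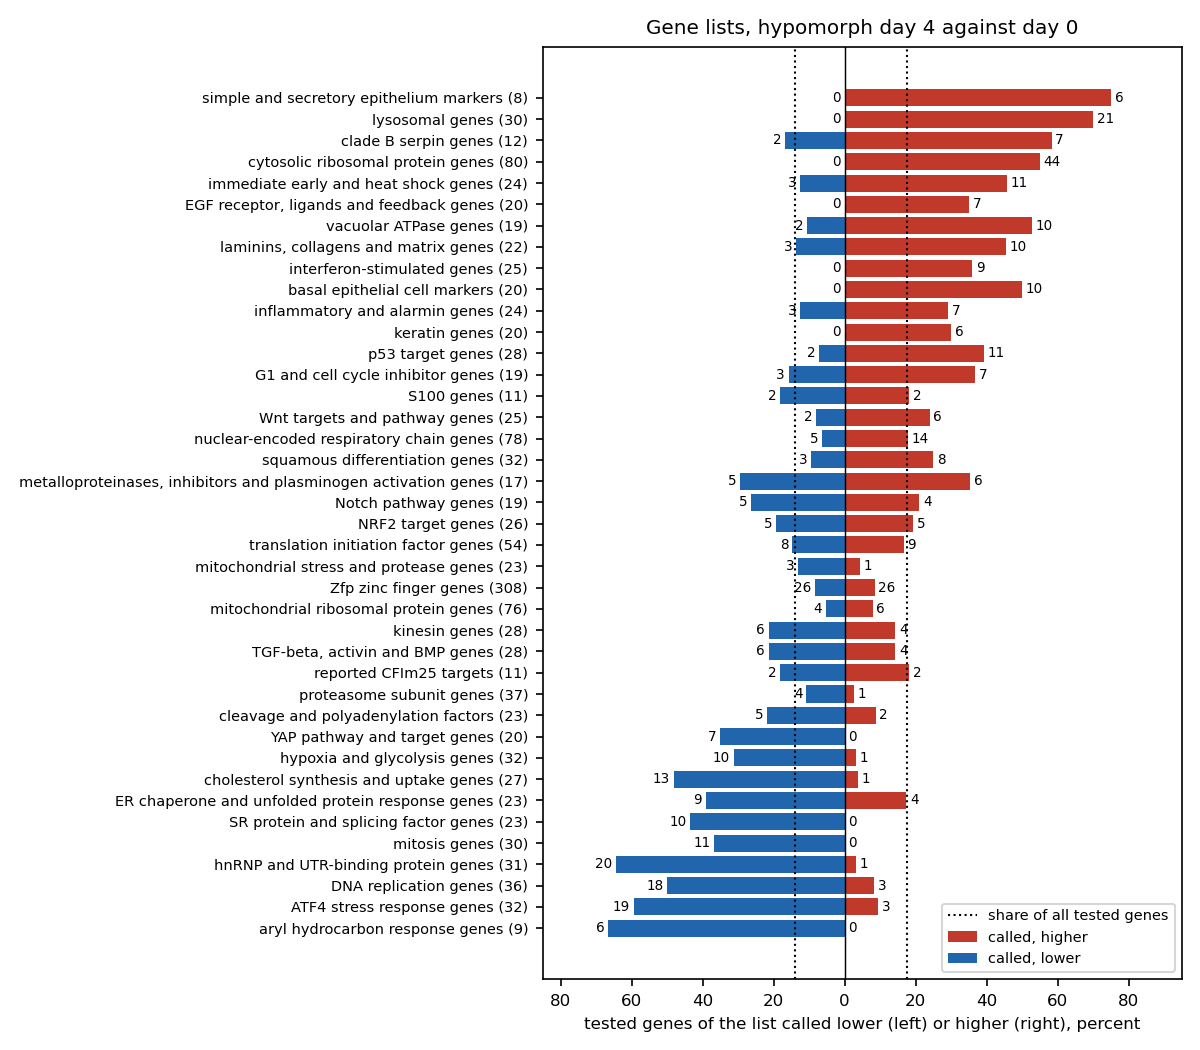
Share of the tested genes of each list that were called higher (red, right) or lower (blue, left) in hypomorph day 4, in percent, with the number of genes at the bar's end, the number tested in parentheses and the share of all tested genes as dotted lines. Lists with at least 3 called genes are ordered by their median change, from simple epithelium markers (6 of 8 higher) and lysosomal genes (21 of 30 higher) to ATF4 stress response genes (19 of 32 lower) and aryl hydrocarbon response genes (6 of 9 lower).

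Lysosomal genes rose together. Lysosomes break down macromolecules with acid hydrolases, and the transcription factor TFEB and its relatives are known to bind a CACGTG-containing element in the promoters of many of their genes. Of 30 listed genes 21 rose and none fell, with a median change of 0.41 against 0.01 over all genes. Cd68, a membrane glycoprotein of late endosomes and lysosomes, went from 62.9, 81.3 and 70.6 scaled CPM to 164, 171 and 188 (1.28 ± 0.08, limma adjusted p = 2.43e-12). Hexa, a subunit of beta-hexosaminidase, went from 25.5, 26.3 and 23.6 to 54.7, 55.9 and 64. The protease genes Ctsd (1162, 1175 and 1150 to 1606, 1652 and 1654) and Ctsl (274, 283 and 280 to 450, 458 and 404) rose by less, but their groups did not overlap either. The 9 genes that did not pass had changes from -1.15 (Ctss, a cathepsin of leukocytes) to 0.26 (Ctsf). The count was 17 without libraries over 30 M reads and 19 or 20 without the libraries high in Alb or without any 1 of day 0 replicates 1, 2 and 3 and hypomorph day 4 replicate 2. Cd68 is also a macrophage marker, and the leukocyte markers were low, 3.21 to 5.97 scaled CPM in sum over 4 measured genes in the hypomorph against 44, 3.49 and 22.5 at day 0.

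Promoter sequences of the listed genes, from RefSeq (GRCm38.p6, 250 bases before to 50 bases after a transcript start, 32851 windows of all genes), were searched on both strands after the results were seen. Of 30 lysosomal genes 24 had a window. CACGTG was in 10 of their 26 windows (38.5%) and in 7.15% of all windows, and the longer TCACGTGA, which contains it, in 4 of 26 (15.4%) and 0.974% of all. The same letters with G before and C after were in none of them and in 0.326% of all windows. The 4 genes with TCACGTGA are shown because all 4 rose, by 0.59 (Ctsa), 0.49 (Ctsd), 0.67 (Gla, alpha-galactosidase) and 0.66 (Mcoln1, a lysosomal cation channel). Capitals mark the motif and each sequence is on the gene's strand.
Ctsa chr2:164833743-164833772 (+): gaacaatgagcaaactgTCACGTGAtgcag
Ctsd chr7:142387908-142387937 (-): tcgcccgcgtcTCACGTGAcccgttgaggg
Gla chrX:134601215-134601244 (-): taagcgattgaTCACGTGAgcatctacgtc
Mcoln1 chr8:3500462-3500491 (+): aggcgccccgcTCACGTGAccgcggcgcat
Of the 10 genes with CACGTG 7 rose, and Ctsf, Glb1 and Sgsh did not pass the test. That share is no larger than the 21 of 30 that rose in the whole list. A match is a description of the letters and not a measured binding site.

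The vacuolar ATPase, the proton pump that acidifies lysosomes, rose in 10 of 19 subunit and assembly genes and fell in 2. Atp6v0d1 went from 82.7, 77.5 and 67.3 scaled CPM to 104, 111 and 107 (0.50 ± 0.08). Vma21, a chaperone for assembly of the pump, moved the other way, from 53.9, 56.7 and 60 to 28.4, 22.7 and 27.9 (fell by 1.10 ± 0.12, limma adjusted p = 5.75e-08). Without the libraries high in Alb 4 of the 19 rose.

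Cytosolic ribosomal protein genes rose in 44 of 80 and fell in none, with a median change of 0.36. Their sum was 30792, 32198 and 28981 scaled CPM at day 0 and 38430, 38716 and 38926 in the hypomorph, so the groups did not overlap. Rps2 rose by 0.37 ± 0.08 and Rpl17 by 0.43 ± 0.09. The count depends on single libraries: it was 28 without day 0 replicate 1, 23 without day 0 replicate 3, 28 without hypomorph day 4 replicate 2 and 10 without the libraries high in Alb. With log2 Alb as a term, which keeps all libraries, 42 of the 80 rose. These genes have many processed copies, so their counts are uncertain.

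Genes of the ATF4 program fell in most cases. ATF4 is the transcription factor of the integrated stress response and drives amino acid import, serine and one-carbon metabolism and tRNA charging. Of 32 tested genes 19 fell and 3 rose, with a median of -0.32, or 16 and none without the libraries high in Alb. The falls included Slc7a11, the serine synthesis gene Psat1 (576, 589 and 481 to 365, 323 and 312, fell by 0.72 ± 0.08), the transsulfuration gene Cth (117, 108 and 106 to 67.8, 58.9 and 57.1, fell by 0.85 ± 0.08) and the mitochondrial folate gene Aldh1l2 (35.7, 40.4 and 27.7 to 15.3, 15.2 and 15.8). Atf4 itself fell by 0.22 ± 0.08 (limma adjusted p = 0.0248), a call that 5 of 19 alternatives lost. Ddit3, which encodes CHOP, did not pass the test, at 12.2, 12.4 and 11 against 11.8, 13.6 and 13.1. Nupr1, Sars and Sesn2 rose. The letters TGATGCAA, a known C/EBP-ATF composite element, were in 8 of 34 promoter windows of the list (23.5%) and in 0.895% of all windows. Of those 8 genes 3 fell, Slc7a11, Vldlr and Chac1, and 1 rose, Nupr1. The cAMP response element TGACGTCA was in none of the 34 windows and in 1.79% of all windows.

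Chaperones of the endoplasmic reticulum moved with the ATF4 genes in part. Of 23 genes of the unfolded protein response 9 fell and 4 rose, or 6 and none without the libraries high in Alb. Hspa5, the chaperone BiP, went from 877, 880 and 903 scaled CPM to 628, 635 and 620 (fell by 0.50 ± 0.07, limma adjusted p = 5.64e-06), and Hsp90b1, the chaperone GRP94, fell by 0.54 ± 0.09. Cholesterol synthesis and uptake genes fell in 13 of 27 and rose in 1. Stard4, a sterol carrier, went from 329, 329 and 341 to 181, 185 and 179 (fell by 0.87 ± 0.08), and Idi1 and Cyp51, both enzymes of the pathway, fell by 0.64 ± 0.08 and 0.50 ± 0.07. Without the libraries high in Alb 7 of the 27 fell. Of 32 hypoxia and glycolysis genes 10 fell and 1 rose, 6 and 4 falling without libraries over 30 M reads and without those high in Alb. The glucose transporter gene Slc2a1 fell from 380, 395 and 349 to 253, 265 and 286.

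Aryl hydrocarbon response genes fell in 6 of 9 and rose in none. The aryl hydrocarbon receptor is a ligand-activated transcription factor that drives genes of xenobiotic metabolism. Aldh3a1, an aldehyde dehydrogenase, went from 13.3, 21.3 and 17.8 scaled CPM to 6.71, 7 and 6.24 (fell by 1.31 ± 0.17, limma adjusted p = 7.32e-07). The glucuronosyltransferase gene Ugt1a7c, which shares exons with its neighbours in the Ugt1a cluster, fell by 1.24 ± 0.18, and the receptor gene Ahr fell by 0.55. Cyp1b1 went from 1.76, 6.67 and 3.25 to 1.38, 1.14 and 1.38, and its call was lost without libraries over 30 M reads, where 4 of the 9 fell. The core GCGTG of the receptor's element was in 5 of 8 windows (62.5%) and in 32.4% of all windows. Of those 5 genes 2 fell, Ahrr and Cyp1b1. Arnt and Tiparp did not pass, and Cyp1a1 was not among the tested genes.

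Genes of the DNA replication machinery fell moderately. Of 36 genes 18 fell and 3 rose, with a median of -0.31. Mcm5, a subunit of the replicative helicase, went from 263, 244 and 275 scaled CPM to 174, 173 and 167 (fell by 0.60 ± 0.09, limma adjusted p = 9.25e-06). Pold1, the catalytic subunit of polymerase delta, fell by 0.50 ± 0.09. The groups did not overlap for either, but day 0 replicate 2 was the lowest of the 3 day 0 libraries in both. Without the libraries high in Alb, 6 of the 36 fell and 2 rose. Mitosis genes fell in 11 of 30 and rose in none, with a median of -0.20. Ccna2, cyclin A2, went from 257, 242 and 250 to 171, 159 and 168 (fell by 0.59 ± 0.09). With log2 Alb as a term, which keeps all libraries, 19 replication genes and 13 mitosis genes fell, and 2 replication genes rose. The mitosis count was 2 without the libraries high in Alb, 7 without hypomorph day 4 replicate 3, 17 with edgeR and 18 with DESeq2. Of 19 G1 regulators and cell cycle inhibitors 7 rose and 3 fell, or 5 and none without the libraries high in Alb and 4 and 2 without those over 30 M reads. The inhibitor genes Cdkn2a and Cdkn1c were among the rises, Cdkn2a from 28.7, 29.5 and 27.2 to 54.8, 59.6 and 64.5 (1.05 ± 0.10) and Cdkn1c from 1.65, 2.36 and 1.08 to 6.15, 6.4 and 7.52, as was the cyclin gene Ccnd2 (1435, 1513 and 1434 to 2046, 2080 and 2087).

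Promoters of the replication genes, 34 windows of 29 genes, were searched for letters of the element bound by E2F factors. TTTCGCGC was in 7 windows (20.6%) and in 0.323% of all windows, TTTGGCGC in 5 (14.7% against 0.514%) and TTTCCCGC in 6 (17.6% against 1.07%). Of the 7 genes with TTTCGCGC 6 fell and Orc1, an origin recognition subunit, did not pass, with a change of 0.24. The 5 windows with the match before the transcript start are shown to set those that fell beside Orc1. Capitals mark the motif, read as GCGCGAAA where it lies on the opposite strand.
Mcm5 chr8:75109345-75109374 (+): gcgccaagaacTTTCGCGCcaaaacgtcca
Mcm6 chr1:128359793-128359822 (-): gtatgcttttgGCGCGAAAagtgcgtgcgg
Rfc3 chr5:151651209-151651238 (-): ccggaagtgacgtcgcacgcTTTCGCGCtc
Uhrf1 chr17:56304117-56304146 (+): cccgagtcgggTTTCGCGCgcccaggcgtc
Orc1 chr4:108579416-108579445 (+): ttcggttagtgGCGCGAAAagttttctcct
Mcm6 went from 224, 211 and 210 scaled CPM to 180, 168 and 155, and Uhrf1, which maintains DNA methylation, from 191, 178 and 223 to 145, 158 and 152. The sterol element TCACCCCAC was searched likewise and was in 1 of 25 windows of the cholesterol list, that of Hmgcs1, and in 0.551% of all windows. The same letters preceded by A were in none of the 25 and in 0.0913% of all. In all, 11 motifs were searched in 5 lists.

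RNA-binding proteins fell broadly. HnRNPs and other proteins that bind UTRs regulate splicing, stability and poly(A) site choice. Of 31 genes 20 fell and 1 rose, with a median of -0.29. Hnrnpr went from 100, 110 and 102 scaled CPM to 42.3, 45.8 and 39.5 (fell by 1.28 ± 0.10, limma adjusted p = 1.03e-10), Hnrnpll from 102, 97 and 106 to 51.4, 56.7 and 51.8, and Hnrnpd from 182, 192 and 208 to 117, 108 and 111. SR proteins and splicing factors fell in 10 of 23 and rose in none. Srsf3 went from 242, 253 and 248 to 126, 127 and 112 (fell by 1.02 ± 0.07, limma adjusted p = 3.24e-11). Without the libraries high in Alb the counts of falls were 12 and 6. The counts cover all transcripts of a gene, so a change in isoform that alters the counted part cannot be told apart from one in level.

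Of 23 factors of cleavage and polyadenylation 5 fell, Nudt21 among them, and 2 rose, a share close to that of all genes. Cpsf6 and Cpsf7, the partners of CFIm25 in cleavage factor Im, did not pass, at 138, 150 and 161 scaled CPM against 158, 155 and 153 for Cpsf6 and 76.5, 77.2 and 79.4 against 68.8, 73.5 and 69.4 for Cpsf7. Papolg, a poly(A) polymerase, rose from 19.4, 25.1 and 21.8 to 46.4, 41.5 and 43.8 (0.98 ± 0.09, limma adjusted p = 7.39e-09), while the polymerase Papola fell by 0.37 ± 0.07. Cstf2, which binds downstream of the cleavage site, fell from 140, 143 and 157 to 108, 105 and 104. Of 11 genes reported elsewhere as targets of CFIm25, 2 fell, Vma21 among them, and Pak1 and Ccnd1 rose. Of 13 miRNA processing and Argonaute genes only Drosha passed the test, with a fall of 0.29, and none did without the libraries high in Alb.

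The authors also deposited calls of 3' UTR change from poly(A) site sequencing (PAS-seq) of hypomorph cells at day 4, which can be set beside these mRNA changes. In the authors' deposited table, 942 of 4324 genes are called Short in the hypomorph and 38 Long. Of the Short genes 301 fell (32.0%) and 107 rose (11.4%) in mRNA. Of the 3344 genes with neither call, 606 fell (18.1%) and 562 rose (16.8%). Of the 38 Long genes 11 fell (28.9%) and 1 rose (2.63%). The hypomorph ratios in that table equal the KO ratios within 1e-06 in 3397 of 4324 genes, so the calls rest on the authors. Of the 942 Short genes 931 are called Short in KO too. The Short set is therefore not a measure of the hypomorph apart from KO. Genes with a PAS call are also expressed genes, and falls were more frequent at high level. In 4 equal bins of all tested genes by mean level, 4.93% fell in the lowest bin and 23.3% in the highest, while 18.1% and 17.4% rose. Gene length moved with direction as well. In the bin of 4 with the shortest counted length (59 to 2121 bases) 21.0% rose and 7.71% fell, and in the longest (5491 bases or more) 15.2% rose and 18.4% fell. What part length or level has in the PAS difference was not tested.

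Cell identity genes moved in several directions. Basal markers rose in 10 of 20 and fell in none. Krt17 went from 3457, 3518 and 3736 scaled CPM to 5009, 5359 and 5454 (0.56 ± 0.07, limma adjusted p = 5.38e-07), and Col17a1, a hemidesmosome collagen, rose by 0.49 ± 0.08. Krt14 and Trp63 did not pass, with changes of -0.09 and -0.05. The basal count was 6 without libraries over 30 M reads. Markers of simple and secretory epithelium, which line the gut and glands and not the esophagus, rose in 6 of the 8 measured. Krt19 went from 76.9, 57.5 and 77.4 to 214, 235 and 220 (1.66 ± 0.10, limma adjusted p = 4.56e-13), Krt7 from 3.02, 1.74 and 5.66 to 10.2, 9.13 and 10.1 and Cldn7 from 0.549, 0.103 and 0.241 to 2.3, 2.25 and 3.53. Krt8 and Krt18, the defining keratins of simple epithelium, did not pass and stayed at 1.70 scaled CPM or less and 8.94 or less. The defining secretory and ciliated markers Muc5ac, Muc5b, Scgb1a1 and Foxj1 are not among the listed genes.

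Squamous differentiation genes had no common direction, with 8 of 32 higher and 3 lower. Sprr1b, a cornified envelope precursor, went from 27.5, 51.3 and 31.9 scaled CPM to 125, 118 and 136 (1.81 ± 0.17), and the envelope protein gene Ivl from 2.86, 4.92 and 6.03 to 14.5, 15.2 and 12.9 (1.58 ± 0.24). Emp1 went from 211, 229 and 226 to 124, 127 and 122 (fell by 0.83 ± 0.08). The list's count depended on the day 0 libraries. It was 15 higher and 3 lower without day 0 replicate 2, 6 and 6 without day 0 replicate 3, and 4 higher and 17 lower without the libraries high in Alb, where replicate 2 was the only day 0 library.

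**Figure D4:**
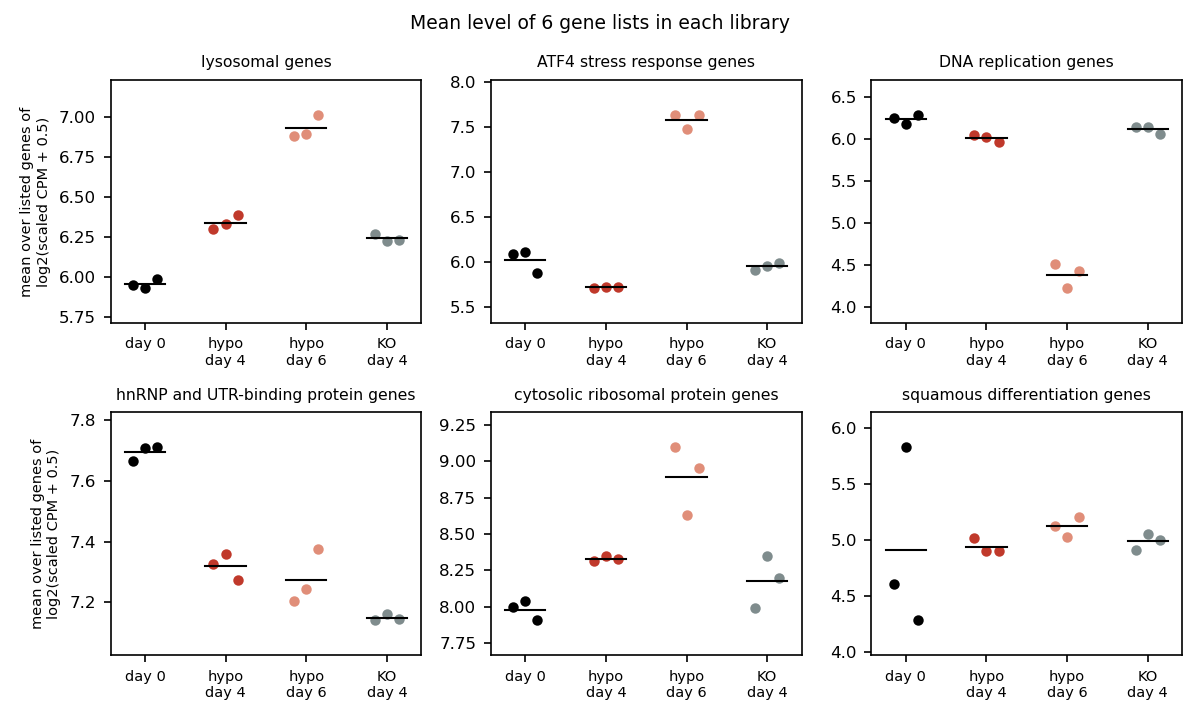
Mean over the genes of 6 lists of log2(scaled CPM + 0.5), each point 1 library and each line the group mean, for day 0, hypomorph day 4, hypomorph day 6 and KO day 4 (n = 3 each). Lysosomal genes lie at 5.93 to 5.99 at day 0, 6.30 to 6.38 in hypomorph day 4 and 6.88 to 7.01 in hypomorph day 6, ATF4 genes are lowest in hypomorph day 4 and highest at day 6, and day 0 replicate 2 stands at 5.83 in the squamous list against 4.61 and 4.28.

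Matrix and signalling genes gave smaller groups. Of 22 laminin, collagen and other matrix genes 10 rose and 3 fell, or 6 rose without libraries over 30 M reads. Besides type IV collagen, Lamb1 rose from 113, 126 and 157 scaled CPM to 183, 208 and 214, while Ltbp1, which anchors latent TGF-beta in the matrix, fell from 32.2, 42.2 and 40.7 to 14.5, 18.1 and 17.3. Of 20 genes of EGF receptor signalling 7 rose and none fell, led by the feedback gene Phlda1 (0.82 ± 0.12). The receptor gene Egfr had a change of 0.02. The EGF count was 4 without libraries over 30 M reads, without the libraries high in Alb and without hypomorph day 4 replicate 3. Of 28 p53 targets 11 rose and 2 fell, or 7 rose without the libraries high in Alb and without those over 30 M reads. Plk3 went from 41.1, 55.5 and 57.5 to 81.6, 93.1 and 106 and Mdm2 rose by 0.45 ± 0.08, while Perp, a desmosomal target, fell by 0.44 ± 0.07. Of 20 YAP pathway genes 7 fell and none rose, among them F3 (tissue factor, fell by 0.75 ± 0.11), and 3 fell without the libraries high in Alb. Ctnnb1, which encodes beta-catenin, fell from 701, 715 and 690 to 486, 473 and 458 in a list of 25 Wnt genes with 6 rises. None of these Wnt genes rose without libraries over 30 M reads, and 1 did without those high in Alb.

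Immune response genes rose in part. Of 25 measured interferon-stimulated genes 9 rose and none fell. The largest changes were in genes near silence, Oas3 at 0.33, 0.205 and 0 scaled CPM against 1.47, 1.63 and 1.28 and Usp18 at 0.275, 0.103 and 0 against 0.735, 1.32 and 1.56. Without libraries over 30 M reads the count was 5, and without those high in Alb it was 5 too. Of 24 inflammatory genes 7 rose and 3 fell. Il1rn, the interleukin 1 receptor antagonist, went from 21.5, 29.3 and 25.4 to 75.8, 73.1 and 69.5 (1.51 ± 0.09, limma adjusted p = 3.45e-13). S100a8 and S100a9, alarmins of squamous cells and neutrophils, were at 5.23 or less in all 6 libraries and fell. Ptprc, the pan-leukocyte gene, was at 10, 0 and 8.19 at day 0 and at 0.643, 0.942 and 0 in the hypomorph. The part of leukocyte RNA in these changes was not tested.

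Among early response and heat shock genes 11 of 24 rose and 3 fell, or 7 and 1 without the libraries high in Alb. Ier3 went from 56, 60.8 and 70.4 scaled CPM to 111, 115 and 117 (0.88 ± 0.08), and Jund and the mRNA decay factor gene Zfp36 rose by 0.79 ± 0.12 and 0.71 ± 0.10. Fosl2 fell by 0.44 ± 0.08. NRF2 targets split into 5 rises and 5 falls of 26, or 3 and 3 without the libraries high in Alb. The iron store gene Ftl1 went from 712, 699 and 667 to 1111, 1146 and 1178 (0.73 ± 0.08), while Slc7a11 of the ATF4 list is a known NRF2 target too.

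KO cells of the same day offer a direct comparison whose difference does not use the day 0 levels, although the spread in its test comes from the fit of all 18 libraries, day 0 included. Hypomorph and KO cells at day 4 differed in 3026 of 12344 genes (24.5%), 1711 higher in the hypomorph (13.9%) and 1315 lower (10.7%). The count was 627 without libraries over 30 M reads, which leaves 1 KO library, and 1109 without those high in Alb, which also leaves 1. Nudt21 did not differ past the threshold, at 2.70, 2.44 and 3.95 scaled CPM in KO against 4.91, 6.25 and 3.85 in the hypomorph (difference 0.64 ± 0.28, limma adjusted p = 0.101).

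Some of the genes with the largest differences were high in the hypomorph. Tnc, the matrix protein tenascin C, was at 105, 111 and 107 in the hypomorph and 23.6, 22.6 and 16.6 in KO, with 59.6, 67.2 and 91.9 at day 0, from which the hypomorph did not differ past the threshold (0.58, limma adjusted p = 0.0601). Col4a1 and Col4a2 were 1.96 and 2.33 higher in the hypomorph than in KO. Aldh3a1 was at 6.71, 7 and 6.24 in the hypomorph and 75.5, 80.9 and 83.2 in KO, the largest difference the other way by the rule (-3.49, limma adjusted p = 5.2e-15), and Cyp1b1 also was lower in the hypomorph, by 2.26. Lcp1, a leukocyte actin-bundling protein, was lower in the hypomorph too, but stood at 19.6, 6.89 and 27 in KO, where Alb was at 437, 9.53 and 762. Its low library is the library low in Alb, and the part of foreign RNA in it was not tested.

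**Figure D5:**
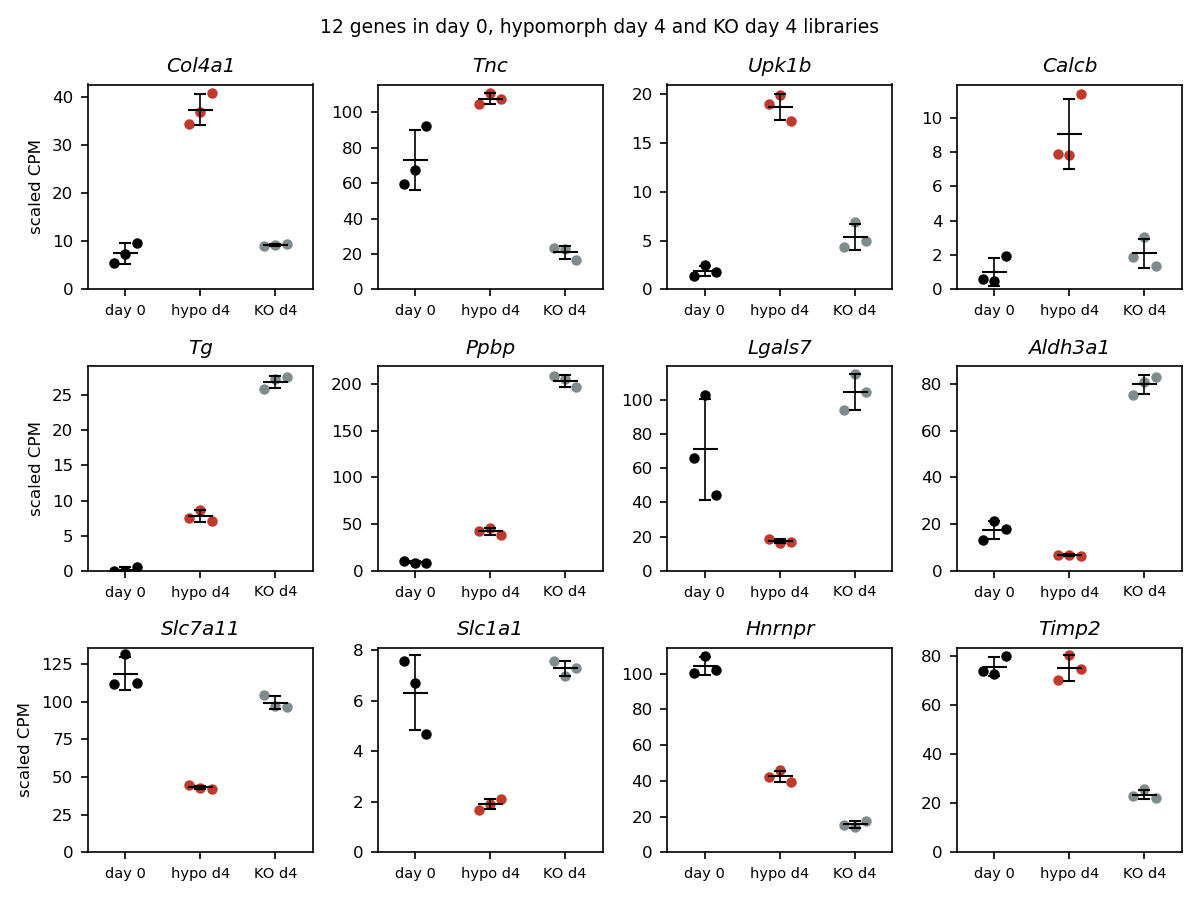
Scaled CPM of 12 genes in each library at day 0, hypomorph day 4 and KO day 4, with the mean and SD (n = 3 each). Col4a1, Tnc, Upk1b and Calcb are highest in the hypomorph, Tg, Ppbp, Lgals7 and Aldh3a1 in KO, Slc7a11 and Slc1a1 are lowest in the hypomorph, and Timp2 stands at 70.4 to 80.7 in the hypomorph against 22.2 to 25.8 in KO.

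The list counts against KO stand beside 13.9% of all tested genes higher in the hypomorph and 10.7% lower. Of the 31 hnRNP and UTR-binding protein genes, 8 were higher in the hypomorph than in KO and 4 were lower. Hnrnpr stood at 42.6 ± 3.15 scaled CPM in the hypomorph and 15.6 ± 1.74 in KO (difference 1.42, limma adjusted p = 1.8e-11), and Hnrnpll and Srsf3 were 1.40 and 0.65 higher in the hypomorph than in KO. Ctnnb1 and Vma21 were likewise 1.03 and 0.70 higher in the hypomorph. Timp2, a metalloproteinase inhibitor and reported CFIm25 target, was at 70.4, 80.7 and 74.8 in the hypomorph and at 74.1, 72.9 and 80.3 at day 0, with 22.9, 25.8 and 22.2 in KO (difference 1.65, limma adjusted p = 1.4e-13). ATF4 genes were lower in the hypomorph than in KO in 14 of 32 and higher in 3, and mitosis genes lower in 18 of 30 and higher in none. Inflammatory genes were lower in 13 of 24 and higher in none. Lysosomal genes were higher in 7 of 30 and lower in 2, a called share of 30% that is near the 24.5% of all genes.

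Hypomorph cells at day 6 differed from day 4 in 7636 genes (61.9%), 3938 higher at day 6 (31.9%) and 3698 lower (30.0%). The ATF4 genes, low at day 4, were higher at day 6 in 31 of 32, with means of 7.71 at day 4 and 138 scaled CPM at day 6 for Trib3 and of 12.8 and 138 for Ddit3. Adm, which encodes adrenomedullin, was at 13.5, 13.1 and 11.5 at day 4, a change from day 0 of -0.10 that did not pass, and at a mean of 385 at day 6 (4.86 higher, limma adjusted p = 2.4e-22). DNA replication genes were lower at day 6 in 35 of 36 and mitosis genes in 30 of 30. Ccne2, cyclin E2, was at 26.5, 26.9 and 23.7 at day 4 and 2.32 at day 6. Lysosomal genes were higher again in 24 of 30, with Cd68 at 174 ± 12.1 at day 4 and 486 ± 21.5 at day 6. Calcb, one of the largest rises at day 4, was at 0.33 ± 0.268 at day 6.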

How the data were processed

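The mRNA signal values were deposited by the authors as scaled CPM, read counts per gene divided by a scale for each library, with column sums that are not a constant; the design had assumed plain CPM. Reads had been aligned with STAR and counted with featureCounts on mm10, per the submitters' processing notes, with versions not given in the sources used here. Multiplying by each library's step gave whole reads for all values within 0.1, but in 3 columns, hypomorph day 4 replicate 2 among them, the lowest value is worth 2 reads, so count models were kept as alternatives. The authors' deposited table gives log2 fold changes with a p-value and FDR per gene, and its F statistic, a score, was not used. The PAS-seq ratio of each group (proximal over distal site use) and the calls Short and Long were deposited by the authors, pooled over samples.

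Changes were tested with limma 3.58.1 in R 4.3.3 (trend and robust options) on log2(scaled CPM + 0.5), in 1 fit of 18 libraries in 6 groups, over 12344 of 12348 genes with at least 1 scaled CPM in at least 3 libraries. Calls needed a Benjamini-Hochberg adjusted p under 0.05. The procedure was tested on simulated data with few changed genes and the same dispersion for every gene. The simulation held none of the differences among day 0 libraries described above, so it does not cover them. Depth ranged from 16.3 to 54.4 M recovered reads in the 6 libraries compared. Alternatives were another pseudocount (0.1, 2), no filter, TMM scaling, edgeR 4.0.16 and DESeq2 1.42.0 on recovered reads, thinning, depth or Alb as a term, the compared groups alone, the replicate block and leaving out libraries.

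Named genes were Nudt21, the 12 largest rises and 12 largest falls (called, groups apart, higher group averaging 5 scaled CPM or more), the 5 largest differences each way in the comparisons with KO day 4 and with day 6, and the 4 genes of smallest p in each list with 3 or more calls. Factors of cleavage and polyadenylation and reported CFIm25 targets were named as needed, and other genes were chosen after their values were seen. Members and lists were chosen with earlier results of these data known. A few genes that the rule names are not reported here.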

Additional observations from a re-analysis of the deposited data

Results flagged for a closer look

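Of the 25 largest changes of the hypomorph at day 4 (Nudt21 included), 14 differed between hypomorph and KO cells of that day by a direct test (limma, adjusted over all genes). Of all tested genes 24.5% did. The largest changes were picked by their values in the same hypomorph libraries, so an excess over that share is partly built in. The hypomorph and KO effects are measured from the same day 0 libraries. Their levels drop out of the direct difference, but their spread enters its test. Higher in the hypomorph than in KO were Col4a1 by 1.96, Calcb by 1.90, Upk1b by 1.73, Tnfrsf26 by 0.94, Parvb by 0.83 and Flrt2 by 0.28 on the log2 scale. The call of Tnfrsf26 was lost in 11 of 19 alternatives, that of Flrt2 in 2 and that of Parvb in 1. Flrt2 had fallen from day 0 in the hypomorph, so its difference means a smaller fall. Lower in the hypomorph were Ppbp (-2.25) and Tg (-1.73), which stood higher still in KO, at a mean of 203 and 26.9 scaled CPM. Among genes that fell in the hypomorph, Lgals7 (-2.56), Slc1a1 (-1.70), Slc7a11 (-1.19), Adh7 (-1.15), Robo2 (-1.05) and Zdhhc2 (-0.81) were lower there than in KO. Of these, Lgals7, Adh7 and Robo2 lost the call in 1 alternative, without libraries over 30 M reads, and Zdhhc2 in 2. Lgals7 stood at 94.2, 115 and 104 in KO, with day 0 at 65.7, 103 and 44.6, and Slc1a1 at 7.58, 6.98 and 7.32, with day 0 at 7.58, 6.72 and 4.7. Doxycycline was in the medium of the hypomorph cells only, and its part in these differences cannot be told apart.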

How the results depend on the processing

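The count of 3908 genes called against day 0 was 2245 without libraries over 30 M reads and 1998 without libraries with Alb above 100, and the count of 3026 against KO at day 4 was 627 and 1109 in the same settings. Both settings remove samples, the second leaving 1 library in day 0 and 1 in KO day 4. Leaving out 1 replicate at a time gave 2890 to 3599 calls against day 0, 2117 to 2659 against KO and 7098 to 7504 between days 4 and 6. Every other alternative kept these 3 counts within 1.5 times. No called named gene changed sign in any alternative. But the majority of rises against day 0 became a majority of falls with TMM scaling, edgeR, DESeq2 and depth as a term. The called genes of the squamous list, a minority of it, turned from mostly higher to mostly lower without the libraries high in Alb. Of named genes called against day 0, 49 of 197 lost the call in at least 1 of 19 alternatives, as did 59 of 103 against KO and 26 of 174 between days 4 and 6.

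Deviations of same-numbered libraries of day 0 and hypomorph day 4 from their group means had correlations of 0.035, -0.295 and -0.055. Differently numbered libraries correlated too, such as day 0 replicate 1 with hypomorph day 4 replicate 2 (0.224). These values therefore cannot tell whether the numbers pair the libraries. With the number as a replicate block the count against day 0 was 3995.

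Values near 1 scaled CPM rest on few reads in the libraries of 16.3 to 21.3 M reads, and 3 libraries per group limit what can be called.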

Other observations

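Other gene families had shares of called genes below, near and above the 31.7% of all genes. Most counts were smaller without the libraries high in Alb, given second below. Calls over all genes were fewer in that setting too, where 1 day 0 library is left. A smaller count there is thus not by itself particular to a list, although lists lost unequal shares of their calls. Of 308 zinc finger genes named Zfp, 26 rose and 26 fell in hypomorph day 4 against day 0, or 12 and 14. Mitochondrial ribosomal protein genes rose in 6 of 76 and fell in 4, or 1 and 1, with a median change of -0.02, while the cytosolic ribosomal protein genes had a median of 0.36. Nuclear-encoded respiratory chain genes rose in 14 of 78 and fell in 5, or 2 and 1. Translation initiation factors rose in 9 of 54 and fell in 8, or 1 and 2. Kinesins rose in 4 of 28 and fell in 6, or 3 and none, and proteasome subunits rose in 1 of 37 and fell in 4, or none either way. Clade B serpins rose in 7 of 12 and fell in 2, or 4 and 2. Keratins rose in 6 of 20 and fell in none, or 5 and 5.

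Developmental signalling lists had calls in both directions. Notch genes rose in 4 of 19 and fell in 5, or 1 and 2 both without the libraries high in Alb and without those over 30 M reads, and 1 rose without day 0 replicate 1. TGF-beta, activin and BMP genes rose in 4 of 28 and fell in 6, or 3 and 4 without the libraries high in Alb and 2 and 4 without those over 30 M reads. Metalloproteinase, inhibitor and plasminogen activation genes rose in 6 of 17 and fell in 5, or 4 and 2 without the libraries high in Alb. Mitochondrial stress and protease genes rose in 1 of 23 and fell in 3, or none and 1, and S100 genes rose in 2 of 11 and fell in 2, with the same counts in that setting. None of the mitochondrially encoded genes was in the table.

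The structural RNA Rn7sk moved with Alb. It stood at 1754, 28.7 and 1207 scaled CPM at day 0 and at 93.5, 171 and 39.3 in hypomorph day 4, and was lowest at day 0 in the library where Alb was at 6.97. Liver markers had no called gene among 17 tested (limma, Benjamini-Hochberg adjusted), with a median change of -2.03. Fibroblast markers summed to 36.6, 7.79 and 22.2 at day 0 and 11.6, 14.7 and 13.8 in hypomorph day 4 over 3 measured genes, with 1 rise. Of 3 measured muscle markers 1 rose and 1 fell, of 4 leukocyte markers 1 fell, and none of 4 endothelial and erythroid markers was called. Their part in the results was not tested.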
